A study of Mus musculus with 10 samples.

Results

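Integrin and laminin genes were examined in RNA-seq libraries from 2 types of intratelencephalic projection neurons (IT-PNs), *Fezf2+ve* and *Fezf2−ve*, of layer 5 in the mouse primary motor cortex (M1). They were picked from the count table by symbol: Itga or Itgb plus digits with any suffix letters, the letter-named alpha chains (*Itgad*, *Itgae*, *Itgal*, *Itgam*, *Itgav* and *Itgax*), and Lama, Lamb or Lamc plus a digit. Of 24453 genes in the table, 39 had such a symbol, namely 27 integrin chains, 11 laminin chains and *Itgb3bp*. The last of these encodes a nuclear protein that was named for binding an integrin tail, and it is no integrin chain itself.

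Integrins are receptors of the cell surface, each built from an alpha and a beta chain, which bind the extracellular matrix or proteins of other cells and link them to the actin cytoskeleton. Laminins are secreted proteins of the basement membrane, each assembled from an alpha, a beta and a gamma chain, and several integrins are their receptors. In the mature cortex, basement membranes surround blood vessels and lie beneath the pia, and microglia carry integrins of the leukocyte family.

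Each of 5 male Swiss Webster mice of the (Zfp312-EGFP)CO61GsatMmnc line gave 1 library of each type, so that the 10 libraries form 5 pairs. The animals were hemizygous for the transgene, in which *Fezf2* regulatory elements drive GFP. All received a fluorescent cholera toxin subunit B (CTB) retrograde tracer in the left M1 at postnatal day 23 to 25. At postnatal day 28 to 32, layer 5 was dissected from the right M1, and cells were sorted by fluorescence into GFP and CTB positive cells (*Fezf2+ve*) and cells positive for CTB alone (*Fezf2−ve*). Reads counted on genes ranged from 107643 to 203379 (median 118134) in *Fezf2+ve* and from 89138 to 217738 (median 168711) in *Fezf2−ve*, a difference with p = 0.188 in a two-sided exact permutation test of the pairs, whose smallest possible p is 0.0625. At these depths 3 reads equal 13.8 to 33.7 CPM, that is, reads scaled to the gene reads of the library. Floors and intervals from read numbers include no error beyond counting, although reads amplified by PCR are not independent molecules. Values by library are given in the order of animals 1 to 5. *Fezf2* itself, the gene that names the types, had 1 read, in the *Fezf2+ve* library of animal 5. By RT-PCR, the paper detected *Fezf2* in the GFP and CTB positive fractions and not in those positive for CTB alone (n = 5 each).

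At least 1 read was found for 32 of the 39 genes, and together they held 1526 of 1553687 gene reads, or 0.0982%. Between 8 and 20 of them were detected in a single library. The 7 genes with 0 reads were *Itga2b*, *Itga4*, *Itga7*, *Itgal*, *Itgb2l*, *Lamb1* and *Lamb3*, which allows a level of up to 1.93 CPM over all 10 libraries. A filter of at least 10 CPM in at least 2 libraries left 16 of the 39 genes, and a gene can pass it through libraries of 1 type alone. The 16 were *Itga2*, *Itga6*, *Itga9*, *Itga11*, *Itgam*, *Itgav*, *Itgb1*, *Itgb2*, *Itgb5*, *Lama2*, *Lama3*, *Lama4*, *Lama5*, *Lamc1*, *Lamc3* and *Itgb3bp*.

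Reads of most genes were gathered in few libraries, and integrin and laminin genes were no exception. Among the 4482 genes of the table with at least 20 reads, the library with the most reads held a median of 55.2% of a gene's reads, and for 56.0% of these genes it held over 50%. Of the 39 genes, 13 had at least 20 reads, their median was 64.1%, and for 8 of the 13 a single library held over 50%. Reads in all 10 libraries were found for 20.3% of the 4482 genes and for 2 of the 13, *Itga9* and *Itgb1*.

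**Figure D1:**
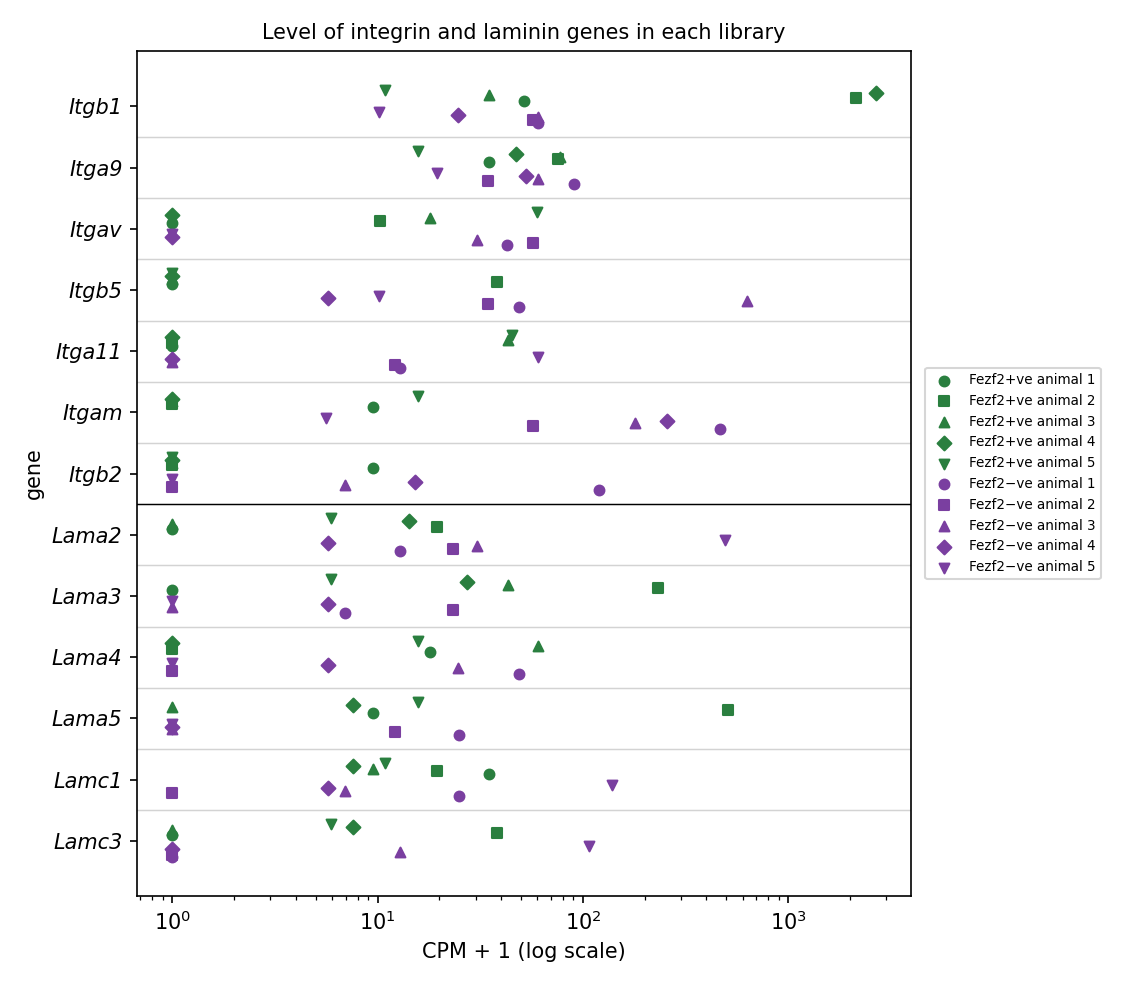
Level of the 13 integrin and laminin genes with at least 20 reads in each of the 10 libraries, as CPM + 1 on a log scale. Each point is 1 library, green for *Fezf2+ve* and purple for *Fezf2−ve*, the symbol gives the animal, and points at 1 are libraries with 0 reads. The *Itgb1* points of 2 *Fezf2+ve* libraries and single points of *Itgb5*, *Lama2* and *Lama5* lie far to the right of the others.

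The first comparison asked which integrin and laminin genes differed between the types within animals. None of the 16 genes was called by an edgeR quasi-likelihood fit that blocks on the animal, with Benjamini-Hochberg adjusted p over all genes tested (0 of 16 at an adjusted p at or below 0.1, with adjusted p = 0.998 for each), and 0% of the 7409 genes tested were called. At an unadjusted p under 0.05 there was 1 of the 16, *Itgam*, against 288 of the 7409 genes (3.89%). Without the block, edgeR called 279 genes (3.77%), *Itgb1* among them, and DESeq2 with the block called 98 genes (1.32%), *Itgam* among them. In counts simulated at the spread of these data, edgeR with the block called none of the genes that had been changed and without it few, while DESeq2 called more of the changed genes than either, beside many unchanged ones. Thus 0 calls are no evidence of equal levels, and in that simulation calls by DESeq2 included false ones more often than the threshold allows. It was a single draw with the same spread for every gene and no difference between animals. The rate of false calls in the data themselves was not measured. DESeq2 gave an adjusted p to 1664 genes, and of the 16 to *Itgam*, *Itgb1*, *Itgb5* and *Lama2* alone. *Itga2*, *Itga6* and *Itgb2* passed the filter through *Fezf2−ve* libraries alone, which favours a lower fitted level in *Fezf2+ve*. The sign of their fitted difference is therefore not read as a result. For *Itga2* the log2 fold change was −0.24 by edgeR with the block and 0.12 by DESeq2. Fold changes are given as *Fezf2+ve* over *Fezf2−ve* throughout.

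**Figure D2:**
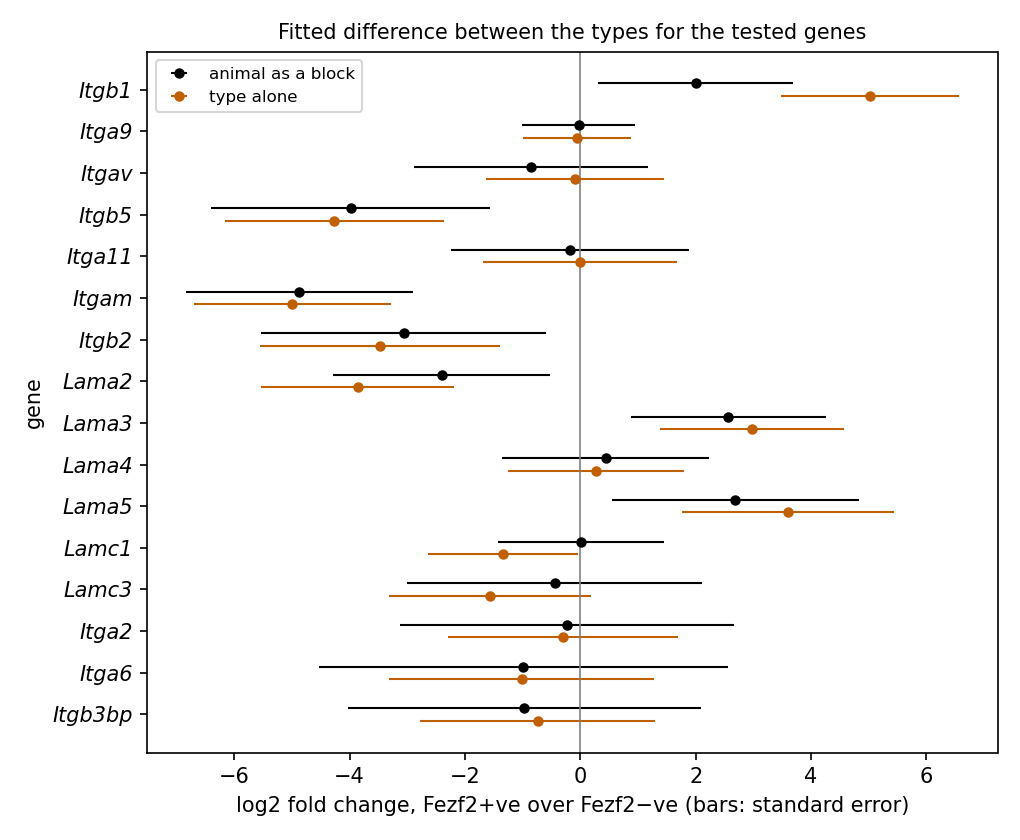
Fitted log2 fold change between the types, positive where *Fezf2+ve* is higher (x axis, bars are the standard error) for the 16 tested genes, with the animal as a block (black) or with type alone (orange), n = 5 animals. *Itgb1* lies at 2.00 with the block and at 5.02 without it, and *Itgam* at −4.87 and −4.99.

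*Itgb1* encodes the beta 1 chain, which pairs with the alpha chains of most receptors for laminin, collagen and fibronectin. It had 6, 231, 4, 405 and 2 reads in *Fezf2+ve* and 10, 5, 10, 5 and 2 reads in *Fezf2−ve*. The *Fezf2+ve* libraries of animals 2 and 4 stood apart and held 93.5% of its 680 reads, while the other 3 *Fezf2+ve* libraries lay within the *Fezf2−ve* range. Its level was 982 ± 1315 CPM (SD, n = 5) in *Fezf2+ve* and 41.6 ± 23.5 CPM in *Fezf2−ve* IT-PNs, and it was higher in *Fezf2+ve* in 3 of 5 animals. The log2 fold change was 2.00 (SE 1.68, edgeR with the block, adjusted p = 0.998), so the difference did not exceed the spread between animals, and the exact permutation test of the pairs gave p = 0.438. Without the block the log2 fold change was 5.02, which edgeR called (adjusted p = 0.0931, over all alternatives 0.0931 to 1), and without both libraries of animal 2 or of animal 4 it was 0.86 or 0.81 with the block, while without animal 1, 3 or 5 it was 2.91, 3.07 or 2.66. In the *Fezf2+ve* libraries of animals 2 and 4, markers of astrocytes summed to 7608 and 1682 CPM and markers of oligodendrocytes to 10758 and 106 CPM. The *Fezf2−ve* library of animal 4 had astrocyte markers at 3799 CPM and 5 reads of *Itgb1*, and that of animal 1 had oligodendrocyte markers at 2049 CPM, the next highest sum of that list, and 10 reads. These astrocyte sums each rested mostly on 1 gene. *Slc1a2* gave 778 of 819 marker reads in *Fezf2+ve* of animal 2 and 791 of 803 in *Fezf2−ve* of animal 4. *Slc1a3* gave 238 of 255 in *Fezf2+ve* of animal 4. The part of other cells in the *Itgb1* reads was not tested.

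The alpha chains that join beta 1 or beta 4 to bind laminin were close to the limit of detection. *Itga6* had 4 reads in 3 libraries, *Itga3* 2 reads and *Itgb4* 1 read, and *Itga7* had none. The collagen-binding alpha chains *Itga1*, *Itga10* and *Itga2* had 3, 4 and 5 reads. *Itga11*, whose receptor binds fibrillar collagen, had 5 and 9 reads in *Fezf2+ve* libraries of animals 3 and 5, 2, 1 and 13 in *Fezf2−ve* libraries of animals 1, 2 and 5, and 0 in the other 5. The types overlapped, with means of 17.3 ± 23.7 and 16.6 ± 24.8 CPM (SD, n = 5 each).

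*Itga9* encodes the alpha 9 chain, which pairs with beta 1 and binds tenascin and other ligands, and it was the most evenly spread of the 13 genes. Its reads were 4, 8, 9, 7 and 3 in *Fezf2+ve* and 15, 3, 10, 11 and 4 in *Fezf2−ve*. The library with the most reads held 20.3% of the total, a share that was no larger in only 1.61% of the 4482 genes. The types overlapped throughout, at 49.1 ± 26.4 and 50.5 ± 26.9 CPM (SD, n = 5 each), and *Fezf2−ve* was higher in 3 of 5 animals. The log2 fold change was −0.03 (SE 0.98, edgeR with the block, adjusted p = 0.998), and without animal 1 its sign turned (0.21). *Itga9* spans 294 kb, in which RefSeq places 4 other genes. Reads of overlapping genes cannot be separated, because whether counting was stranded is not given in the sources used here. The paper reports more reads in introns than in exons for both types, and gene reads came close to its numbers of reads mapped to mm10. Reads from introns were therefore counted, and their share in long genes such as *Itga9* and *Lama2* (636 kb) was not measured. *Itga4*, of the same subfamily, had 0 reads.

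Among the chains of receptors for the RGD motif of fibronectin, vitronectin and latent TGF-beta, *Itgb5* and *Itgav* had 20 reads or more. *Itgb5* had 4 reads in the *Fezf2+ve* library of animal 2 and 0 in the other *Fezf2+ve* libraries, and 8, 3, 106, 1 and 2 reads in *Fezf2−ve*. The *Fezf2−ve* library of animal 3 alone held 85.5% of its 124 reads, although *Fezf2−ve* was higher in 4 of 5 animals. The means were 7.43 ± 16.6 CPM in *Fezf2+ve* and 145 ± 271 CPM in *Fezf2−ve* (SD, n = 5 each), with a log2 fold change of −3.98 (SE 2.42, edgeR with the block, adjusted p = 0.998) that was −2.41 without animal 3 and −6.86 without animal 2, the smallest and largest size with 1 animal left out. The exact permutation test of the pairs gave p = 0.125. *Itgav*, the alpha partner of beta 5, had 0, 1, 2, 0 and 12 reads in *Fezf2+ve* and 7, 5, 5, 0 and 0 reads in *Fezf2−ve*. Its *Fezf2−ve* reads lay in animals 1 to 3, the animals with the most *Fezf2−ve* reads of *Itgb5*, while the *Fezf2+ve* library of animal 5, with the most *Itgav* reads, had 0 of *Itgb5*. The types overlapped for *Itgav* (log2 fold change −0.86, SE 2.03, edgeR with the block, adjusted p = 0.998, and 0.08 without animal 1). *Itga5*, *Itga8*, *Itgb3* and *Itgb6* had 1 to 7 reads each, and the 5 reads of *Itgb8* lay in *Fezf2+ve* libraries, 4 in that of animal 1 and 1 in that of animal 3.

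The leukocyte integrins share the beta 2 chain, and *Itgam* and *Itgb2* encode both chains of complement receptor 3, a phagocytic receptor of microglia and other myeloid cells. The RefSeq promoters (GRCm38.p6, the assembly of mm10, plus strand, 5′ to 3′) of *Itgam* and *Itgb1*, the 2 genes called under an alternative, are shown with matches to GAGGAA, the core bound by the myeloid factor PU.1, or to its reverse complement TTCCTC, in capitals. The windows are 300 bases long, at chr7:128062390-128062689 for *Itgam* and chr8:128685404-128685703 for *Itgb1*.
Itgam: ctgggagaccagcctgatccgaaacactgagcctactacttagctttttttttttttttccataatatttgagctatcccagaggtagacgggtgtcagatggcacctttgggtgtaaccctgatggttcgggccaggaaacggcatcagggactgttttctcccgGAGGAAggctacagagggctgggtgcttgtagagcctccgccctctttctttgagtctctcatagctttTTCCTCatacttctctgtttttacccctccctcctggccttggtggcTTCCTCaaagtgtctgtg
Itgb1: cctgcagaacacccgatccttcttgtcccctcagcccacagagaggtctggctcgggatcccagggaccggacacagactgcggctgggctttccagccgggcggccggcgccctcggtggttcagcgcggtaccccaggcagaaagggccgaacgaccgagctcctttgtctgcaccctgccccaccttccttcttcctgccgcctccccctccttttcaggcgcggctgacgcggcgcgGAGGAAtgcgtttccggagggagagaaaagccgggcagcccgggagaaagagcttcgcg
The *Itgam* window holds 3 matches and the *Itgb1* window 1, and 28.3% of the 32851 promoters in the same table hold at least 1. A match describes the letters and is no evidence of binding. Of the 39 genes, 25 have a promoter in the table, 3 of them more than 1, and 15 of the 25 hold a match, so a match does not set *Itgam* apart from the other members.

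*Itgam* had 1, 0, 0, 0 and 3 reads in *Fezf2+ve* and 78, 5, 30, 54 and 1 reads in *Fezf2−ve*. The *Fezf2−ve* libraries of animals 1 to 4 lay above all *Fezf2+ve* libraries, and that of animal 5 lay among them, so the types overlapped through 1 animal. The level was 4.64 ± 6.74 CPM in *Fezf2+ve* and 192 ± 182 CPM in *Fezf2−ve* IT-PNs (SD, n = 5 each), higher in *Fezf2−ve* in 4 of 5 animals. The log2 fold change was −4.87 (SE 1.97), with p = 0.0152 before and 0.998 after adjustment (edgeR with the block), and the exact permutation test of the pairs gave p = 0.125. DESeq2 with the block called it at a log2 fold change of −5.34 (SE 1.60, adjusted p = 0.0419, over all alternatives 0.0419 to 1). Without animal 5 the edgeR log2 fold change was −6.55, and without animal 4 it was −4.14.

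*Itgb2* had 1 read in the *Fezf2+ve* library of animal 1 and 20, 0, 1, 3 and 0 reads in *Fezf2−ve*. Its *Fezf2−ve* reads thus lay in animals 1, 3 and 4, the animals with the most *Itgam* reads, and 1 library held 80.0% of all 25 reads. Over the pooled reads, the rate ratio of *Fezf2−ve* over *Fezf2+ve* was 19.6 (95% Clopper-Pearson interval 3.199 to 807). Without the *Fezf2−ve* library of animal 1 it was 4.07, on 4 reads against 1, with an interval of 0.403 to 200.4 that includes equal rates. Both intervals treat pooled reads as independent and do not measure the spread between animals. *Itgb2* passed the filter through *Fezf2−ve* libraries alone, so its direction is not read as a result. The log2 fold change was −3.06 (SE 2.48, edgeR with the block, adjusted p = 0.998), and the gene did not pass the filter without animal 1 or without animal 4. The alpha chains *Itgad* and *Itgax*, which also pair with beta 2, had 1 read each, and *Itgal* had none. *Itgae* and *Itgb7*, which pair with each other, had 5 reads each, and *Itgb2l* had none.

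Markers of microglia were examined beside *Itgam* and *Itgb2*. Of 15 markers, all with reads in some library, 15 were tested, 0 were called by edgeR with the block, and 11 had an unadjusted p under 0.05, each higher in *Fezf2−ve* IT-PNs (background 2.27% of all tested genes in that direction). Without the block edgeR called 11 (3.77% of all tested genes), and DESeq2 with the block called 10 (1.32% of all tested genes). The 11 with the small p included *Csf1r*, *P2ry12*, *Tmem119*, *Ctss*, *C1qa*, *C1qb*, *C1qc*, *Tyrobp*, *Siglech* and *Selplg*. Of these, *Tmem119*, *C1qa*, *C1qb*, *Tyrobp* and *Siglech* reached 10 CPM in *Fezf2−ve* libraries alone. The filter favours the *Fezf2−ve* direction for them, so their direction is not read as a result. All of them are among the calls without the block, and all but *Siglech* among those of DESeq2. These genes remain in the counts above and in the sum below. The paper had already reported *C1qa*, *C1qb*, *C1qc*, *Csf1r*, *Tyrobp* and *Siglech* as increased in *Fezf2−ve* in these same libraries. The counts beside their background shares are therefore no independent support and are not read as a result. Summed over the 15, the level was 271, 195, 102, 79.2 and 128 CPM in *Fezf2+ve* and 7021, 5475, 7344, 1864 and 4042 CPM in *Fezf2−ve*, with *Ctss* as the gene with the most reads. The summed markers were higher in *Fezf2−ve* in 5 of 5 animals with no overlap between the types, whereas *Itgam* was low in the *Fezf2−ve* library of animal 5. In that library *Csf1r* gave 534 of the 880 marker reads. The part of microglia in the *Itgam* and *Itgb2* reads was not tested, and in these bulk samples fewer cells of a type and less RNA per cell cannot be told apart.

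**Figure D3:**
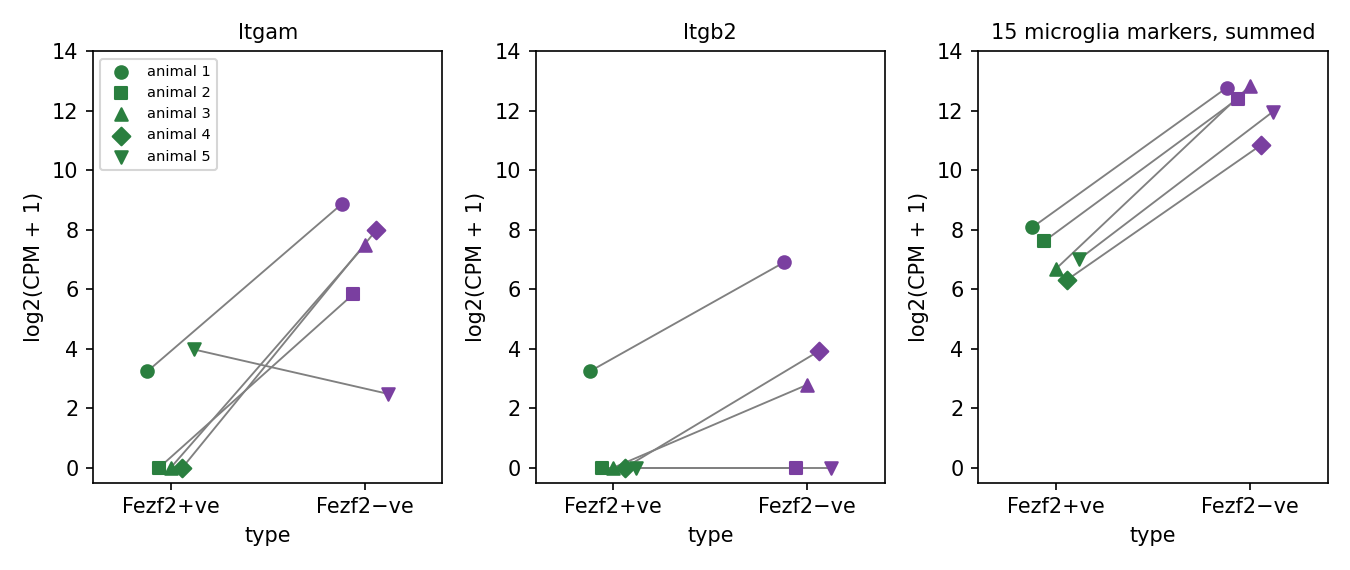
Levels of *Itgam*, *Itgb2* and the sum of 15 microglia markers as log2(CPM + 1) in *Fezf2+ve* (green) and *Fezf2−ve* (purple) IT-PNs, with a line joining the 2 libraries of each animal and 0 for libraries with no read. *Itgam* was higher in *Fezf2−ve* in 4 of 5 animals, *Itgb2* in 3 of 5, and the markers in 5 of 5.

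Laminin alpha chains carry the sites bound by integrins and dystroglycan, and all 5 were detected. *Lama2*, the alpha chain of muscle, nerve and vessel basement membranes, had 0, 2, 0, 2 and 1 reads in *Fezf2+ve* and 2, 2, 5, 1 and 107 reads in *Fezf2−ve*. The *Fezf2−ve* library of animal 5 held 87.7% of its reads, and the remaining libraries of both types lay between 0 and 5 reads. Its log2 fold change was −2.40 (SE 1.88, edgeR with the block, adjusted p = 0.998), −1.25 without animal 5, −3.88 without animal 4 and −3.86 without the block. *Lama5*, the alpha chain of most adult epithelial and vessel basement membranes, had 1, 55, 0, 1 and 3 reads in *Fezf2+ve* and 4, 1, 0, 0 and 0 reads in *Fezf2−ve*. The *Fezf2+ve* library of animal 2 held 84.6% of these, and the log2 fold change was 2.69 (SE 2.14, edgeR with the block, adjusted p = 0.998), 1.43 without animal 2 and 4.35 without animal 1.

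*Lama3*, an alpha chain of epithelial laminins, was highest in the same *Fezf2+ve* library as *Lama5*. It had 0, 25, 5, 4 and 1 reads in *Fezf2+ve* and 1, 2, 0, 1 and 0 reads in *Fezf2−ve*, and it was higher in *Fezf2+ve* in 4 of 5 animals. The log2 fold change was 2.56 (SE 1.69, edgeR with the block, adjusted p = 0.998), with p = 0.25 in the exact permutation test. *Lama4*, the alpha chain typical of endothelium, had 2, 0, 7, 0 and 3 reads in *Fezf2+ve* and 8, 0, 4, 1 and 0 reads in *Fezf2−ve*. Its types overlapped, and its log2 fold change of 0.44 (SE 1.80) turned to −0.07 without animal 3 and to −0.44 without animal 5. *Lama1* had 4 reads.

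Beta chains were nearly absent from the counts, with 1 read of *Lamb2* and 0 of *Lamb1* and *Lamb3*, although every laminin contains one. The gamma chain *Lamc1*, part of most laminins, had 4, 2, 1, 1 and 2 reads in *Fezf2+ve* and 4, 0, 1, 1 and 30 reads in *Fezf2−ve*. *Lamc3* had 0, 4, 0, 1 and 1 reads in *Fezf2+ve* and 0, 0, 2, 0 and 23 reads in *Fezf2−ve*. *Lamc1* and *Lamc3* thus peaked in the *Fezf2−ve* library of animal 5, as *Lama2* did, and their fitted differences were small against their errors (0.02, SE 1.44, and −0.45, SE 2.55, on the log2 scale). That library held 160 of the 335 laminin reads (47.8%), and the *Fezf2+ve* library of animal 2 held 89 (26.6%).

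Summed over the 11 genes, laminins reached 59.3, 827, 110, 72.6 and 54.1 CPM in *Fezf2+ve* and 119, 56.1, 88.9, 18.9 and 735 CPM in *Fezf2−ve*. The ratio of the mean levels, *Fezf2+ve* over *Fezf2−ve*, was 1.103, and it was 0.364 without the *Fezf2+ve* library of animal 2 and 3.17 without the *Fezf2−ve* library of animal 5. Summed integrins were at 135, 2304, 186, 2718 and 192 CPM in *Fezf2+ve* and 846, 292, 1019, 388 and 115 CPM in *Fezf2−ve*, a ratio of 2.08. Without *Itgb1* this ratio was 0.254, and without the *Fezf2+ve* library of animal 4 it was 1.32, so the direction of the integrin sum rested on *Itgb1* in 2 libraries.

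**Figure D4:**
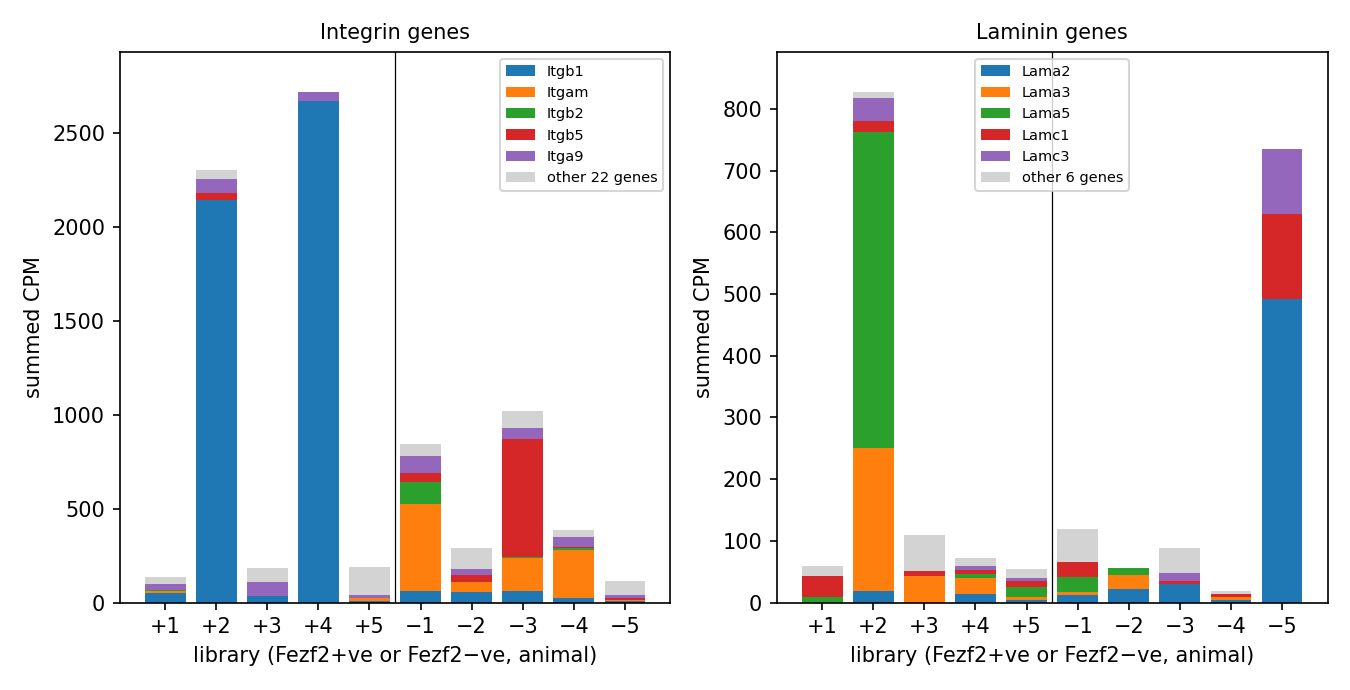
Summed CPM of the 27 integrin genes (left) and the 11 laminin genes (right) in each library, stacked by gene, with + for *Fezf2+ve*, − for *Fezf2−ve* and the number of the animal. *Itgb1* fills most of the integrin bars of *Fezf2+ve* animals 2 and 4, and the laminin bars of *Fezf2+ve* animal 2 and *Fezf2−ve* animal 5 reach 827 and 735 CPM.

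Markers of cells that build basement membranes were examined beside the laminins. Of 10 endothelial markers 9 had reads, 135 in all, of which *Emcn* gave 69, *Esam* was at 0, and 0 of 4 tested had an unadjusted p under 0.05. Among the 7 mural cell markers, *Cspg4* gave 242 of 253 reads and *Kcnj8*, *Acta2* and *Anpep* were at 0, and among the 6 fibroblast markers, *Pdgfra* gave 740 of 744 reads and *Col1a1*, *Col1a2*, *Lum* and *Igf2* were at 0. By library, endothelial markers summed to 8.46, 83.6, 67.8, 13.2 and 59.0 CPM in *Fezf2+ve* and 17.9, 785, 23.7, 47.3 and 73.5 CPM in *Fezf2−ve*, mural markers to 965, 362, 152, 13.2 and 44.3 CPM in *Fezf2+ve* and 35.7, 11.2, 356, 18.9 and 0 CPM in *Fezf2−ve*, and fibroblast markers to 381, 1830.1, 110.1, 46.2 and 462 CPM in *Fezf2+ve* and 316, 247, 308, 66.2 and 1134 CPM in *Fezf2−ve*. The types overlapped for each of these lists. *Cspg4* and *Pdgfra* also mark oligodendrocyte precursors. In the *Fezf2−ve* library of animal 5, where *Lama2*, *Lamc1* and *Lamc3* peaked, endothelial, mural and fibroblast markers summed to 73.5, 0 and 1134 CPM, the last with 243 of 247 reads on *Pdgfra* and 4 on *Dcn*, which had reads in no other library. In the *Fezf2+ve* library of animal 2, where *Lama3* and *Lama5* peaked, they summed to 83.6, 362 and 1830 CPM. The part of these cells in the laminin reads was not tested.

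Other marker lists showed 0 calls by edgeR with the block. Astrocyte markers had reads for 7 of 8 genes (most for *Slc1a2*, *Gfap* at 0), with a mean sum of 2228 CPM in *Fezf2+ve* and 983 CPM in *Fezf2−ve* libraries, and oligodendrocyte markers for 8 of 8, with 2533 and 701 CPM. Astrocyte markers summed to 745, 7608, 644, 1682 and 462 CPM in *Fezf2+ve* and 738, 247, 88.9, 3799 and 41.3 CPM in *Fezf2−ve*, and oligodendrocyte markers to 779, 10758, 618, 106 and 403 CPM in *Fezf2+ve* and 2049, 662, 409, 114 and 271 CPM in *Fezf2−ve*, with overlap between the types. Neither list had a gene with an unadjusted p under 0.05. All 9 markers of projection neurons, the labelled cells, had reads, with sums of 652, 474, 313, 39.6 and 118 CPM in *Fezf2+ve* and 119, 135, 3331, 114 and 41.3 CPM in *Fezf2−ve*. They were higher in *Fezf2+ve* in 3 of 5 animals, with a median log2 fold change of 1.23 over the 8 tested (−0.16 for all tested genes). Of these 8, 0 had an unadjusted p under 0.05 (edgeR with the block). The mean sum went the other way, with 319 CPM in *Fezf2+ve* and 748 CPM in *Fezf2−ve*. *Camk2a* gave 588 of the 822 reads of the list, 529 of them in the *Fezf2−ve* library of animal 3. *Slc17a7*, the vesicular glutamate transporter of these neurons, had 11 reads over all libraries. Of 6 markers of inhibitory interneurons 3 had reads, 11 in all, with *Slc32a1*, *Pvalb* and *Vip* at 0. Of 9 leukocyte and blood markers 4 had reads and were tested. Of these 4, *Hba-a1* and *Hbb-bs*, chains of hemoglobin, were higher in *Fezf2−ve* at an unadjusted p under 0.05 (2.27% of all tested genes in that direction), and DESeq2, which called 1.32% of all tested genes, called *Hba-a1*. *Ptprc*, the leukocyte antigen CD45, had 1390 of its 1422 reads in the *Fezf2−ve* library of animal 4, which had 54 reads of *Itgam*, and edgeR called it without the block.

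Proteins that bind integrin tails or carry their signal were followed next. Of 29 such genes 26 had reads and 19 were tested, and 0 were called by edgeR with the block or by DESeq2. At an unadjusted p under 0.05 there was 1 of 19, where 3.89% of all tested genes had such a p. It was *Rap1b*, a small GTPase that activates integrins, with 2 reads in the *Fezf2+ve* library of animal 5 and 5, 0, 7, 5 and 38 reads in *Fezf2−ve* (log2 fold change −4.34, SE 1.90, edgeR with the block, adjusted p = 0.998). *Rap1b* passed the filter through *Fezf2−ve* libraries alone, which favours this direction, so the direction is not read as a result. The median log2 fold change of the 19 was 0.08, against −0.16 for all tested genes. The 3 genes with the most reads each had nearly all of them in 1 library. *Fermt2*, a kindlin that activates integrins, had 1395 of 1405 reads in the *Fezf2+ve* library of animal 4, the library with 405 reads of *Itgb1*. *Lims1*, a partner of integrin-linked kinase, had 1273 of 1332 reads in the *Fezf2−ve* library of animal 3, and *Cd47*, an integrin-associated membrane protein, had 790 of 852 in the *Fezf2+ve* library of animal 1. Without the block edgeR called *Fermt2* and *Cd47* (adjusted p = 0.0931 and 0.0972), each on the reads of 1 library, in a fit that called 3.77% of all tested genes.

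Of 29 other basement membrane proteins and integrin ligands 25 had reads and 13 were tested, with 0 calls by edgeR with the block and a median log2 fold change of 0.71 (−0.16 for all tested genes). *Sparc*, a collagen-binding matrix protein that microglia also express, was the 1 gene of 13 with an unadjusted p under 0.05, against 3.89% of all tested genes. It had 9, 5, 2, 1 and 6 reads in *Fezf2+ve* and 240, 45, 58, 11 and 7 reads in *Fezf2−ve*. It was higher in *Fezf2−ve* in 5 of 5 animals (log2 fold change −3.06, SE 1.19, edgeR with the block, adjusted p = 0.998), and DESeq2 with the block called it. *Tnr*, the tenascin of perineuronal nets, had 645 reads, 417 of them in the *Fezf2−ve* library of animal 3, and *Col4a6*, a collagen of basement membranes, had 214 reads, 96 in the *Fezf2+ve* library of animal 3 and 95 in the *Fezf2−ve* library of animal 5. The latter is the library in which *Lama2* peaked.

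Laminin receptors other than integrins were listed together with *Large*, which is no receptor itself and gave 475 of the 534 reads of the list. Of the 3 tested genes, 0 were called by edgeR with or without the block or by DESeq2. At an unadjusted p under 0.05 there were 0 (edgeR with the block). *Large*, which builds the laminin-binding glycan of dystroglycan, had 7, 185, 15, 76 and 112 reads in *Fezf2+ve* and 5, 6, 11, 36 and 22 reads in *Fezf2−ve*. It was higher in *Fezf2+ve* in 5 of 5 animals although the types overlapped, with a log2 fold change of 2.11 (SE 1.097, edgeR with the block, adjusted p = 0.998). *Dag1*, dystroglycan itself, had 21 reads and *Rpsa*, a ribosomal protein that also binds laminin, had 36, with log2 fold changes of 2.78 (SE 2.27) and −0.14 (SE 1.17), and *Bcam* had 2 reads.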

How the data were processed

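The authors deposited a table of read counts per gene for the 10 libraries, made from reads that were demultiplexed, trimmed, mapped to mm10 with TopHat2 2.1.1 and counted on RefFlat genes with bedtools 2.26.0 (multiCov), which counts a read on every gene it overlaps. No molecular identifiers were named. The deposited spike-in counts and the table of the authors' own DESeq2 comparison were not used. Members and gene lists were chosen with earlier results of these data known.

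A gene was tested when 2 or more libraries reached 10 CPM. TMM factors and the quasi-likelihood functions of edgeR 4.0.16 (glmQLFit, glmQLFTest) in R 4.3.3 were applied with animal and type as terms, and p was adjusted over 7409 genes by Benjamini-Hochberg. Standard errors were calculated from the unshrunken coefficient and its F statistic. The labels give a replicate number, and the paper describes libraries with the same number as a pair from 1 animal. The mean correlation of same-animal deviations was 0.029 (−0.027 to 0.097), against −0.0073 between other animals. Single genes were compared by a two-sided exact permutation test of paired log2(CPM + 1). DESeq2 1.42.0 was an alternative. Every member that passed the filter was named; those with at least 20 reads were given by library, and of each related list the genes with an unadjusted p under 0.05 and the 3 with the most reads. Some of these genes are not reported here. The fits were tested on simulated data: with little spread between animals all changed genes were called, but at the spread of these data edgeR called none of them with the block and few without it, and DESeq2 called more of them beside many unchanged genes. Python 3.11.15 was used for summaries.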

Additional observations from a re-analysis of the deposited data

Results flagged for a closer look

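For each of the 13 genes with at least 20 reads, the libraries of a type were searched for 1 that lay far from the other 4 on the log2(CPM + 1) scale. This was found in 2 of 26 groups. In both, the other 4 libraries were tied at 0 reads, so any read would have been found, and the chance rate of about 1 in 20 for continuous values does not apply. *Itgb2* was at 8.46 CPM (1 read) in the *Fezf2+ve* library of animal 1 and at 0 in the other *Fezf2+ve* libraries. *Itgb5* was at 37.2 CPM (4 reads) in the *Fezf2+ve* library of animal 2 and at 0 in the other *Fezf2+ve* libraries.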

How the results depend on the processing

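Calls depended on how the pairing of libraries by animal was modelled and on the tool: edgeR with the block called 0 genes, without the replicate block it called 279 genes and 1 of the integrin and laminin genes (*Itgb1*), and DESeq2 with the block called 98 and 1 (*Itgam*). All other settings and each animal left out gave 0 calls. Of 148 recomputed fold changes of the 13 genes, 131 kept their sign, and 7 genes kept it in every alternative that gave a value. The log2 fold change of *Lamc1* (0.02) became −1.34 without the block, −0.0027 with RLE, −0.059 with library size alone and −0.25 without the filter, and that of *Lamc3* (−0.45) became 0.25 with DESeq2. With a pseudocount of 10 the difference in level became −0.12 for *Lamc1* and −0.22 for *Lamc3*. With 1 animal left out in turn, log2 fold changes ranged from −1.54 to 0.43 for *Itga11*, −0.31 to 0.21 for *Itga9*, −2.31 to 0.079 for *Itgav*, −0.44 to 1.11 for *Lama4*, −0.54 to 0.94 for *Lamc1* and −1.87 to 1.18 for *Lamc3*, and without a change of sign from −6.55 to −4.14 for *Itgam*, 0.81 to 3.07 for *Itgb1*, −6.86 to −2.41 for *Itgb5*, −3.88 to −1.25 for *Lama2*, 1.96 to 3.28 for *Lama3* and 1.43 to 4.35 for *Lama5*. *Itgb2*, *Itgb5*, *Lama3*, *Lama5*, *Lamc1* and *Lamc3* were not kept by the stricter filter, and *Itgb2* was not kept without animal 1 or 4. The sums were left out by library, chosen after seeing the data: the ratio of summed integrins was 0.254 without *Itgb1* and 1.32 to 2.70 with 1 library left out, and that of summed laminins was 0.364 to 3.17. The pooled rate ratio of *Itgb2* (19.6) was 4.07 without the *Fezf2−ve* library of animal 1, also chosen after seeing the data. The causes were not tested.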

Other observations

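Several of the genes are neighbours in the RefSeq annotation of GRCm38.p6. On chromosome 7, *Itgam*, *Itgax* and *Itgad* follow each other, *Itgad* 23.3 kb after the end of *Itgax*, with 172, 1 and 1 reads. Of the 13 genes with at least 20 reads, 6 (*Itga9*, *Itgav*, *Lama2*, *Lama3*, *Lama5* and *Lamc1*) have another RefSeq gene or pseudogene within their span and 7 have none.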
